A study of Mus musculus with 24 samples.

Results

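The genes described here are 34 genes that carry glucose carbon through glycolysis, exchange lactate and pass pyruvate into mitochondria. They were listed by function (glycolytic enzymes and their regulators, lactate and pyruvate transport, pyruvate dehydrogenase with its kinases and phosphatase), with earlier results of these data known. Shares of the list set against all genes are therefore a description. The genes were looked up by gene symbol among the 43430 genes of the count table. All 34 were found, and all 34 had enough counts to be tested, among 15300 genes tested in all. PolyA-selected RNA of whole cerebella was sequenced for 24 mice aged about 7 weeks, in 4 genotype groups of 6 mice (3 males and 3 females), with 1 library from each mouse. In cKO mice a conditional deletion disables complex I, the NADH dehydrogenase at the start of the respiratory chain, in the brain. In this line the deleted gene is known to be Ndufs4, an accessory subunit of complex I, removed by a Cre recombinase under the nestin promoter, which is active in the progenitors of neurons and glia. Cells of other origin in the dissected tissue, such as microglia, keep the gene. The cKO+NDI1 mice carry the same knockout together with NDI1, a single-protein NADH dehydrogenase of yeast that pumps no protons. The NDI1 control mice carry NDI1 without the knockout, and the Cre control mice carry Cre without NDI1. The labels name neither the deleted gene nor the Cre driver, and they do not list the alleles that the 2 control groups share with the knockout groups.

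In glycolysis, hexokinase traps glucose in the cell, phosphofructokinase commits it, and aldolase splits the sugar. The steps from glyceraldehyde-3-phosphate dehydrogenase to pyruvate kinase then yield ATP, NADH and pyruvate. The NADH must be reoxidised to NAD+ for glycolysis to run on, either by lactate dehydrogenase, which turns pyruvate into lactate, or through shuttles that hand the electrons to the respiratory chain. Monocarboxylate transporters move lactate between cells, and in brain they are known for carrying lactate out of astrocytes and into neurons. Pyruvate enters mitochondria through the carrier made of MPC1 and MPC2, and the pyruvate dehydrogenase complex converts it to acetyl-CoA. Pyruvate dehydrogenase kinases switch that complex off by phosphorylation, and its phosphatases switch it on again.

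Library totals ranged from 8665396 to 15901824 counts in cKO, from 7584374 to 19785264 in cKO+NDI1, from 14180056 to 17302266 in the NDI1 control and from 13594761 to 18287435 in the Cre control. Levels are given in CPM, counts scaled to a common library size with TMM factors. Ndufs4 averaged 95.4 ± 21.5 CPM in cKO and 101 ± 15.1 in cKO+NDI1, against 144 ± 41.8 in the NDI1 control and 134 ± 23.6 in the Cre control (SD, n = 6 each). Its groups overlapped, and the log2 fold change of cKO against Cre control was -0.47 ± 0.16 (SE) with an adjusted p of 0.0939. These are counts over the whole gene, which include exons outside a deleted one, so they are a weak check of the genotype. Every gene of the 8 cell type marker lists (Purkinje cells, granule neurons, astrocytes and Bergmann glia, oligodendrocytes, microglia, endothelium, choroid plexus and red blood cells) was detected, including the Purkinje and granule neuron markers that define cerebellum. The 34 genes together took 1.23 ± 0.0207% of all counts in cKO, 1.32 ± 0.0479% in cKO+NDI1, 1.38 ± 0.0697% in the NDI1 control and 1.30 ± 0.0814% in the Cre control.

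The comparison of cKO with the Cre control asks what the knockout changed in this pathway. Of the 34 genes, 3 passed the test (edgeR's quasi-likelihood test, Benjamini-Hochberg over all genes tested, adjusted p at or under 0.05), and all were lower in cKO. They were Eno1, the ubiquitous enolase, Pdk1, a pyruvate dehydrogenase kinase, and Hk2, the inducible hexokinase. These 3 of 34 make 8.82%, where 4.87% of all genes tested passed in either direction, 1.81% as lower and 3.06% as higher. Without the test, 27 of the 34 log2 fold changes were negative, against 51.9% of all genes tested, and their median was -0.09, against -0.01 over all genes tested. At an unadjusted p under 0.05 stood 14 of the 34 (11 lower, 3 higher), or 41.2%, against 18.5% of all genes tested (8.29% lower, 10.2% higher). The share of negative values depended a little on scaling: it was 27 with RLE size factors and 24 with library size alone.

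**Figure D1:**
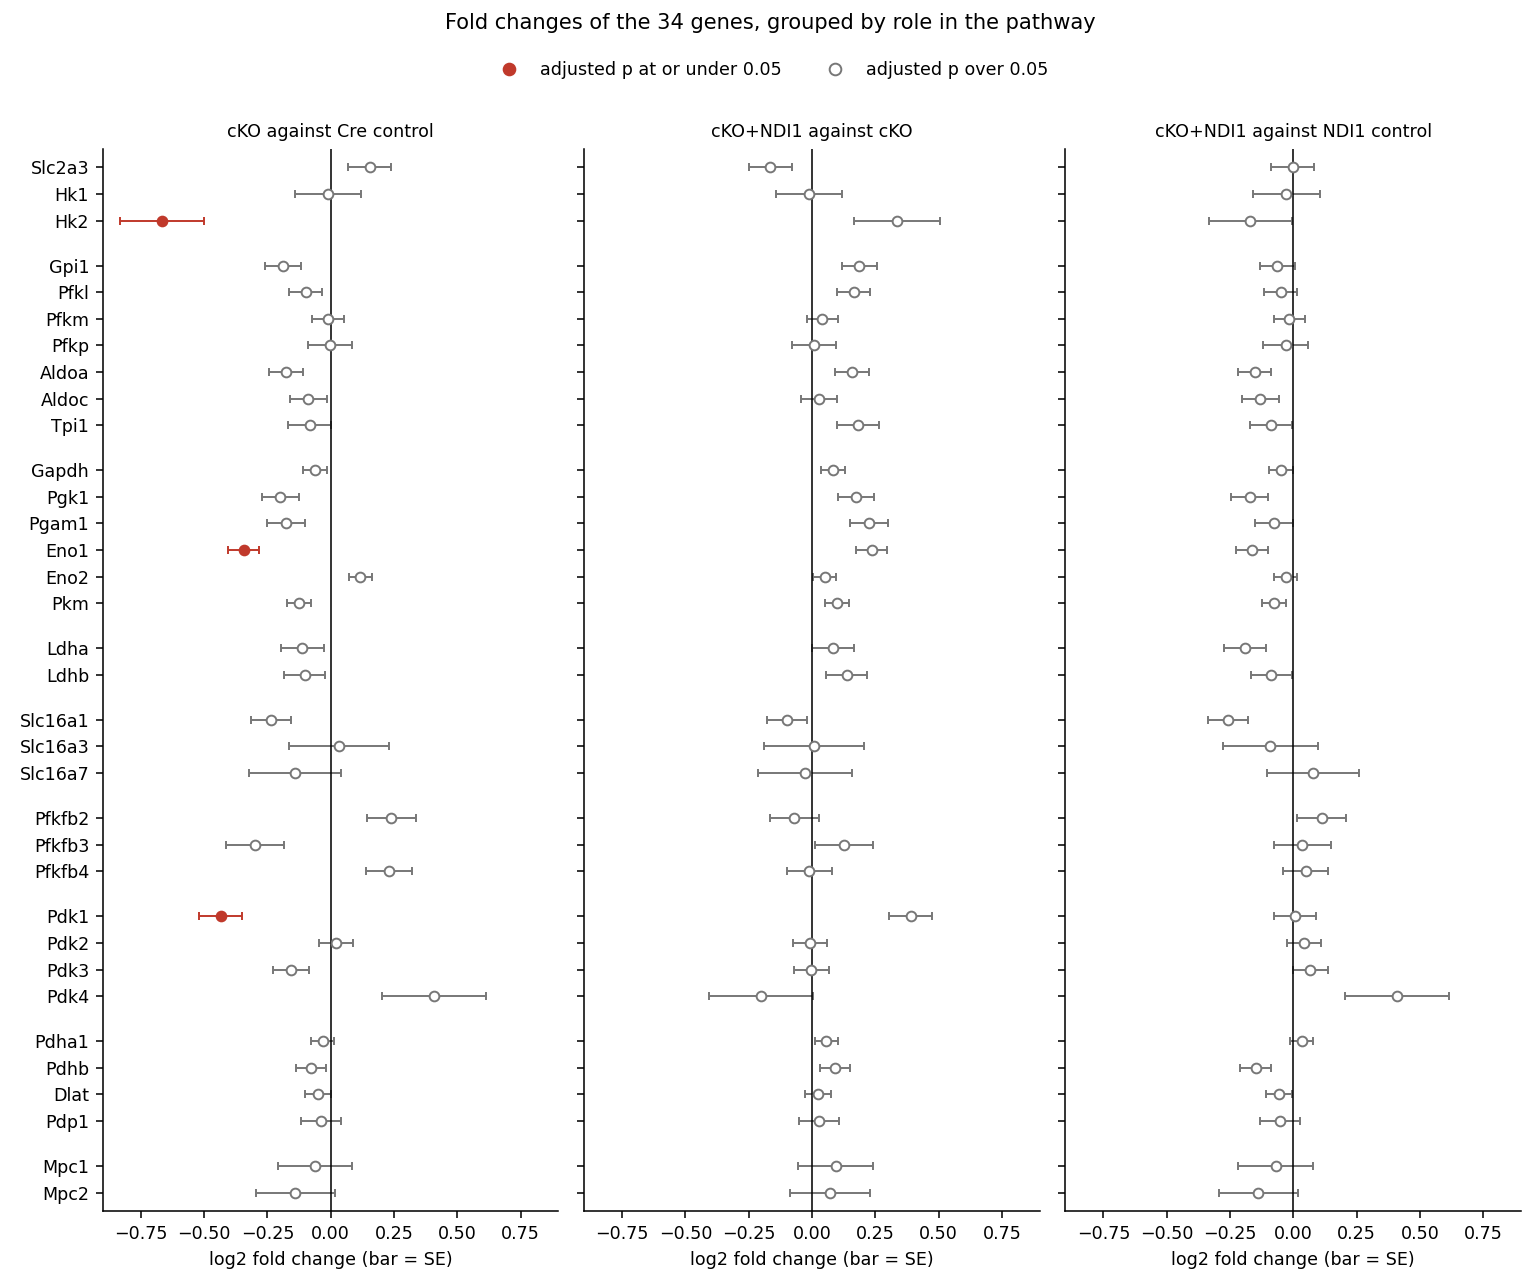
Log2 fold change (x axis, bar = SE) of each of the 34 genes (y axis, grouped by role) in 3 panels, one each for cKO against Cre control, for cKO+NDI1 against cKO, and for cKO+NDI1 against NDI1 control. Filled points have an adjusted p at or under 0.05; in cKO against Cre control these are Hk2, Eno1 and Pdk1, all negative, and there are 0 in the other panels.

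Eno1 (ENSMUSG00000063524, mm10 chromosome 4, 150236721 to 150248879, plus strand) encodes the enolase found in most cells, which turns 2-phosphoglycerate into phosphoenolpyruvate. Its lowest, median and highest levels were 284, 302 and 360.0 CPM in cKO cerebella and 364, 390.5 and 438 CPM in Cre control cerebella. All 6 cKO libraries lay below all 6 Cre control libraries. The fold change was 0.788 (log2 -0.34 ± 0.06 SE, edgeR adjusted p = 0.00225). The retrotransposed copy Eno1b, which resembles Eno1 closely enough to share reads, was counted at 3.14 ± 0.439 CPM in cKO and 3.62 ± 0.508 CPM in the Cre control (SD, n = 6 each). How reads fitting both copies were counted is not given, so the share of Eno1 reads affected is uncertain.

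Pdk1 (ENSMUSG00000006494, chromosome 2, 71873224 to 71903858, plus strand) encodes a kinase that inhibits pyruvate dehydrogenase and is a known target of hypoxia-inducible factors. It stood at 19.9 (lowest), 25.7 (median) and 30.0 CPM (highest) in cKO, and at 30.6, 33.1 and 38.6 CPM in the Cre control. Again no cKO library reached the Cre control range, although the highest cKO library came close to the lowest Cre control library. The fold change was 0.74 (log2 -0.43 ± 0.08 SE, edgeR adjusted p = 0.00385). With only the libraries of these 2 groups in the model, Pdk1 did not pass.

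Hk2 (ENSMUSG00000000628, chromosome 6, 82725025 to 82774454, minus strand) encodes a hexokinase that binds mitochondria and is induced in many proliferating or hypoxic cells. It had 9.11, 11.3 and 18.5 CPM (lowest, median, highest) in cKO, and 13.96, 18.8 and 24.3 CPM in the Cre control. The groups overlapped through 1 cKO library, the male M3, while the other 5 cKO libraries lay between 9.11 and 11.7 CPM. The fold change was 0.63 (log2 -0.67 ± 0.17 SE, edgeR adjusted p = 0.0202). The call ended without the Cre control library M3 (adjusted p = 0.0617) and with only these 2 groups in the model.

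**Figure D2:**
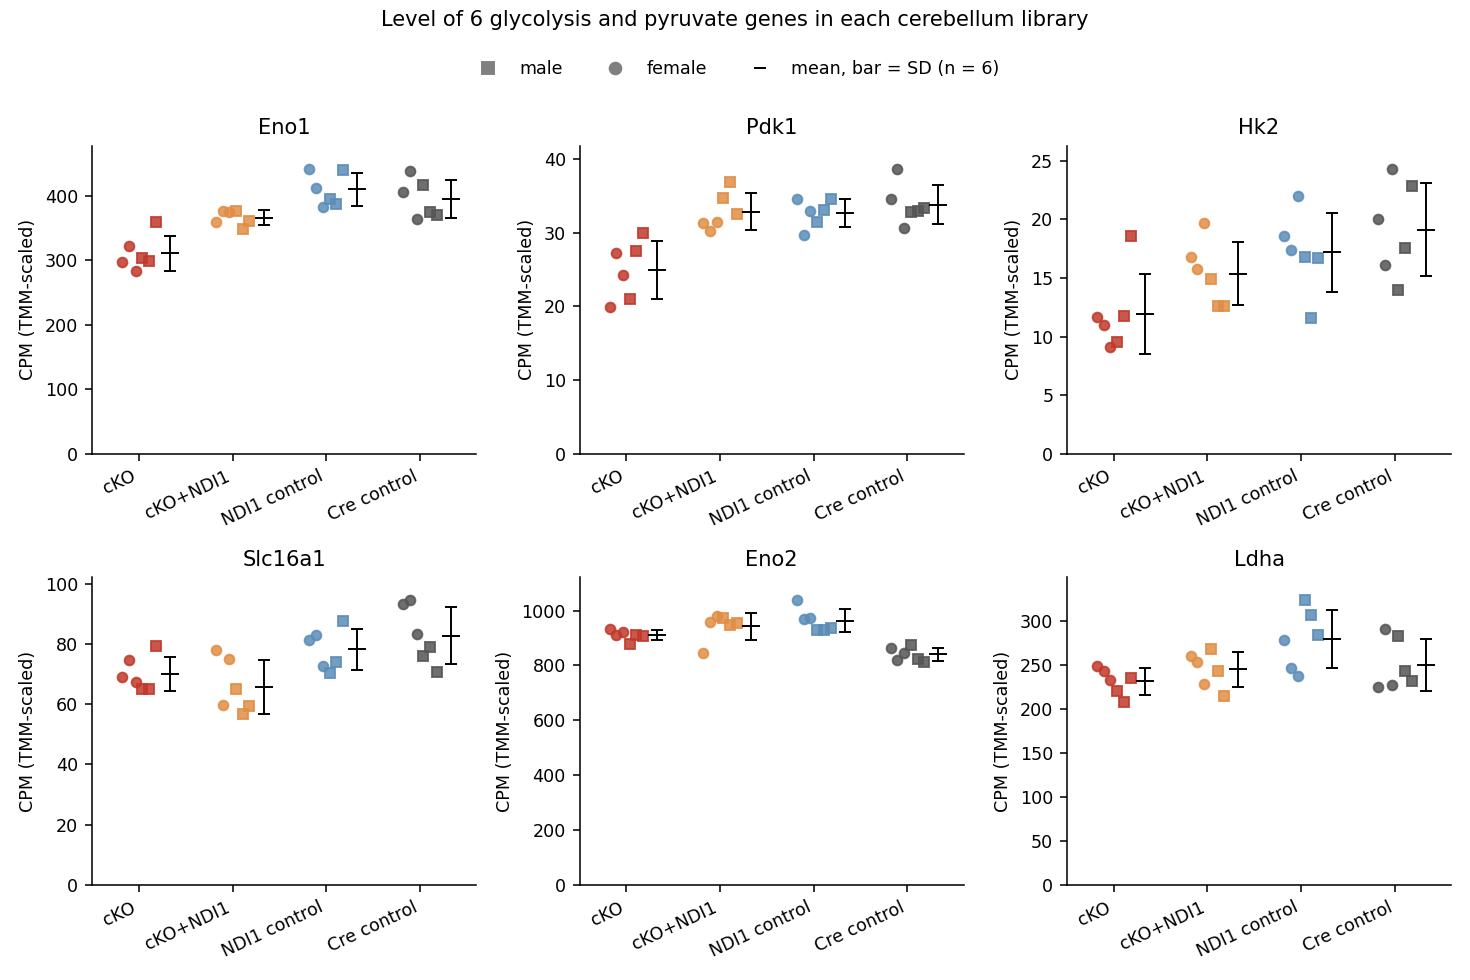
CPM (y axis, from 0) of Eno1, Pdk1, Hk2, Slc16a1, Eno2 and Ldha in each of the 24 libraries by genotype group (x axis), squares for males and circles for females, with the mean and SD of each group of 6. The cKO points of Eno1 and Pdk1 all lie below the Cre control points, those of Eno2 all lie above them, and those of Hk2, Slc16a1 and Ldha overlap them.

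The 250 bases upstream of the start are shown for the 4 of the 34 genes that passed in any comparison. Eno2, the neuronal partner of Eno1, is added. The letters marked, ACGTG or GCGTG, are the core site of hypoxia-inducible factors. Targets of these factors were not assessed as a set, and a change in the activity of these factors was not tested. Sequences are from RefSeq on GRCm38.p6, read 5′ to 3′ on the strand of the gene. Capitals mark ACGTG or GCGTG on either strand (CACGT and CACGC on the opposite one); an E-box, CACGTG, holds an ACGTG on each strand. The windows are chr4:150236458-150236707 (plus) for Eno1, chr2:71872974-71873223 (plus) for Pdk1, chr6:82774455-82774704 (minus) for Hk2, chr3:104638414-104638663 (plus) for Slc16a1 and chr6:124769674-124769923 (minus) for Eno2.
Eno1: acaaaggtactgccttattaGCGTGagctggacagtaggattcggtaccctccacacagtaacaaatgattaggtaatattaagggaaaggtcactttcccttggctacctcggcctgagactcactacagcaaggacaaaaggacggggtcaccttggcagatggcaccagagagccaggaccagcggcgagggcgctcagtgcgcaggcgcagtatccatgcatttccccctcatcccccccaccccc
Pdk1: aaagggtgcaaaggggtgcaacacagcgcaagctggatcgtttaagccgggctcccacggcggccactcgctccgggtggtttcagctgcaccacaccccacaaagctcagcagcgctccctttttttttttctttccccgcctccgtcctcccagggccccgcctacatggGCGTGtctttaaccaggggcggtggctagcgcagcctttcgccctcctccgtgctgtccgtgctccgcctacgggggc
Hk2: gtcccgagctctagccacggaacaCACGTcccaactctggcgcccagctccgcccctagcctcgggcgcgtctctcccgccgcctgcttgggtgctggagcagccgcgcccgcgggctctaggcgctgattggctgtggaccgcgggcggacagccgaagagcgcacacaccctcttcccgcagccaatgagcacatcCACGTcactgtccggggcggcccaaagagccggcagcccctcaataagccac
Slc16a1: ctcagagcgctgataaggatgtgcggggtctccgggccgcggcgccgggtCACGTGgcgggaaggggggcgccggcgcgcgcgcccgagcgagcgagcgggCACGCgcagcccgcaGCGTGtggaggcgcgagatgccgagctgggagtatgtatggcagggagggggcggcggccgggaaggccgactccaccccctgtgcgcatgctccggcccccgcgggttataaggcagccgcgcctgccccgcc
Eno2: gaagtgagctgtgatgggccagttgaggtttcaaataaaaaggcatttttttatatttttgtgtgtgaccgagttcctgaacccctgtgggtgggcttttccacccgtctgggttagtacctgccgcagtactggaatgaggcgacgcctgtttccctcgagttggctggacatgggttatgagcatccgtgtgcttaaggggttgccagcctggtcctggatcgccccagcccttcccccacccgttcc
The windows of Eno1 and Pdk1 held 1 match each, that of Hk2 held 2, that of Slc16a1 held 4 (2 of them in 1 E-box), and that of Eno2 held 0. Of all 32851 RefSeq windows of the same length, 38.6% held ACGTG or GCGTG. Of 48 windows of 31 of the 34 genes (some have several starts), 37 held one (77.1%). The GC content differed too: its median was 61.6% in the windows of these genes and 52.4% in all windows. A match is a run of letters and no evidence of binding.

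Along the upper part of glycolysis, from glucose-6-phosphate isomerase to triose-phosphate isomerase, 0 of 7 genes passed in cKO against Cre control. All 7 values were negative, with a median log2 of -0.09, but with library size alone 5 of 7 were. The isomerase Gpi1 had 289.9, 321 and 354 CPM (lowest, median, highest) in cKO and 322, 366 and 401 CPM in the Cre control (log2 -0.19 ± 0.07, adjusted p = 0.128). Aldoa, the aldolase of most tissues, had 1535, 1562 and 1656 CPM in cKO and 1524, 1709 and 2074 CPM in the Cre control (log2 -0.18 ± 0.07, adjusted p = 0.132). The ranges of Gpi1 and Aldoa overlapped between the groups, and for Aldoa the Cre control libraries were the more spread out. The phosphofructokinase genes Pfkl, Pfkm and Pfkp, whose products form mixed tetramers, were at log2 -0.10, -0.01 and -0.00, and Aldoc and Tpi1 at -0.09 and -0.08. Aldoc, known in cerebellum as zebrin II of Purkinje cell stripes and expressed in astrocytes as well, averaged 2844 ± 185 CPM in cKO and 3023 ± 290.4 CPM in the Cre control (SD, n = 6 each).

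Of the 6 genes of the lower part, only Eno1 passed. Negative values were seen for 5 of the 6 under each of the 3 scalings tried, and Eno2 was the positive one. Pgk1, the phosphoglycerate kinase that makes the first ATP, averaged 172 ± 8.03 CPM in cKO and 198 ± 22.9 CPM in the Cre control (log2 -0.20 ± 0.07, adjusted p = 0.115). Pgam1, the phosphoglycerate mutase, averaged 84.3 ± 3.63 CPM in cKO and 95.5 ± 10.7 CPM in the Cre control (log2 -0.18 ± 0.08, adjusted p = 0.192). Pkm, the pyruvate kinase of brain, averaged 1208 ± 58.5 CPM in cKO and 1318 ± 36.7 CPM in the Cre control (log2 -0.13 ± 0.05, adjusted p = 0.127). Gapdh differed least, at 659 ± 26.5 CPM in cKO and 688 ± 35.5 CPM in the Cre control (log2 -0.06 ± 0.05, adjusted p = 0.55). Gapdh, Pgk1, Pgam1, Aldoa, Ldha and Pkm have processed pseudogenes that could take some of their reads, so their absolute levels are uncertain.

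Eno2, the neuron-specific enolase, had the opposite sign to Eno1. It had 877, 912 and 934 CPM (lowest, median, highest) in cKO, and 812, 835 and 875 CPM in the Cre control. All 6 cKO libraries were above all 6 Cre control libraries, by a narrow margin, and the difference did not pass (log2 0.12 ± 0.05, edgeR adjusted p = 0.149). Groups that did not overlap in either direction were found for Eno1, Pdk1 and Eno2 among the 34 genes and for 2.69% of all genes tested (1.61% above, 1.07% below).

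Lactate dehydrogenase, which interconverts pyruvate and lactate, is built from A subunits (Ldha) and B subunits (Ldhb). Ldha averaged 231 ± 15.1 CPM in cKO and 250.01 ± 29.2 CPM in the Cre control (log2 -0.11 ± 0.08, adjusted p = 0.528). Ldhb averaged 674 ± 38.3 CPM in cKO and 727 ± 95.1 CPM in the Cre control (log2 -0.10 ± 0.08, adjusted p = 0.558). Neither difference exceeded the spread between mice.

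Of the monocarboxylate transporters, Slc16a1 (ENSMUSG00000032902, chromosome 3, 104638668 to 104658462, plus strand) had the highest level per kb of exon. It encodes MCT1, known in brain from endothelium, astrocytes and oligodendrocytes. It had 64.9, 68.1 and 79.4 CPM (lowest, median, highest) in cKO, and 70.8, 81.1 and 94.6 CPM in the Cre control. The ranges overlapped, and the difference did not pass (log2 -0.24 ± 0.08, adjusted p = 0.0927). It passed without the cKO library M3 (log2 -0.29, edgeR adjusted p = 0.0261), and with all libraries in DESeq2 (adjusted p = 0.0485), with a gene length offset (0.0422) and with 1 surrogate variable (0.0246). Slc16a7, the neuronal MCT2, averaged 4.94 ± 0.898 CPM in cKO and 5.47 ± 0.792 CPM in the Cre control, and Slc16a3, the glial MCT4, 1.49 ± 0.324 CPM in cKO and 1.45 ± 0.18 CPM in the Cre control. Slc16a3 rested on as few as 11 counts in a cKO library, so only large differences were detectable for it. The neuronal glucose transporter Slc2a3 averaged 177 ± 28.2 CPM in cKO and 159 ± 14.8 CPM in the Cre control (log2 0.15 ± 0.09, adjusted p = 0.348), and Hk1, the main hexokinase of brain, 237 ± 33.97 CPM in cKO and 241 ± 48.2 CPM in the Cre control.

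Genes that regulate phosphofructokinase by making or removing fructose 2,6-bisphosphate differed in sign, and 0 of 3 passed. Pfkfb3 averaged 27.8 ± 2.93 CPM in cKO and 34.3 ± 4.10 CPM in the Cre control (log2 -0.30 ± 0.11, adjusted p = 0.137). Pfkfb2 averaged 18.7 ± 1.51 CPM in cKO and 15.8 ± 2.09 CPM in the Cre control (log2 0.24 ± 0.10, adjusted p = 0.17). Pfkfb4 averaged 18.9 ± 1.55 CPM in cKO and 16.2 ± 1.66 CPM in the Cre control (log2 0.23 ± 0.09, adjusted p = 0.147).

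Among the 4 pyruvate dehydrogenase kinases only Pdk1 passed. Pdk2, the most abundant of them per kb, averaged 229 ± 15.5 CPM in cKO and 226 ± 18.9 CPM in the Cre control (log2 0.02 ± 0.07). Pdk3 averaged 32.6 ± 2.41 CPM in cKO and 36.4 ± 1.64 CPM in the Cre control (log2 -0.16 ± 0.07, adjusted p = 0.222). Pdk4, which is induced by fasting and glucocorticoids in other tissues, had the largest positive value of the 34 (log2 0.41 ± 0.20, adjusted p = 0.294). In this group 1 mouse stood apart: the cKO female F1 stood at 20.6 CPM and the other 5 cKO libraries between 6.71 and 10.3 CPM, against 6.16 to 8.84 CPM in the Cre control. The complex itself showed little: Pdha1, Pdhb and Dlat, its E1 alpha, E1 beta and E2 subunits, and the phosphatase Pdp1 were at log2 -0.03, -0.08, -0.05 and -0.04, and 0 of the 4 passed. The carrier genes Mpc1 and Mpc2 were at log2 -0.06 and -0.14, with adjusted p of 0.885 and 0.721.

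Marker levels of other cell types moved with this comparison. The summed level of 10 astrocyte and Bergmann glia markers was 5531 to 6168 CPM in cKO and 6413 to 6563 CPM in the Cre control, and that of 6 Purkinje cell markers 8585 to 9224 CPM in cKO and 9621 to 10210 CPM in the Cre control, with no overlap for either. The 10 endothelial markers summed to 284 to 383 CPM in cKO and 256 to 302 CPM in the Cre control, with an overlap. The 7 oligodendrocyte markers summed to 11521 to 18111 CPM in cKO and 12080 to 14079 CPM in the Cre control. Of the astrocyte and Bergmann glia markers 9 of 10 had negative values and 2 passed as lower, of the Purkinje markers 5 of 6 were negative and 0 passed, and of the endothelial markers 9 of 10 were positive and 1 passed as higher, as did 1 oligodendrocyte marker. Of the granule neuron, microglia, choroid plexus and red blood cell markers 0 passed. The part of these markers in the differences of Eno1, Pdk1 and Hk2 was not tested. In whole tissue, fewer cells of a type and less RNA per cell cannot be told apart.

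The comparison of cKO+NDI1 with cKO asks how NDI1 altered these transcripts in knockout mice. None of the 34 genes passed in edgeR, where 0.209% of all genes tested did, while 9 of the 34 had an unadjusted p under 0.05, all higher in cKO+NDI1, or 26.5%, against 8.56% of all genes tested (4.11% higher, 4.44% lower). DESeq2 called 2 of the 34 (Eno1 and Pdk1) and limma-voom 0. Of the 34 values 25 were positive, with a median log2 of 0.06, while 52.4% of all genes tested had negative values. All 7 genes of upper glycolysis, all 6 of lower glycolysis, both lactate dehydrogenase genes, all 4 of the pyruvate dehydrogenase complex and phosphatase and both carrier genes had positive values, under each of the 3 scalings tried. This comparison shares its cKO libraries with cKO against Cre control, so low values in these libraries enter both, as do high ones.

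Pdk1 had the smallest p. Its lowest, median and highest levels were 30.2, 32.0 and 36.9 CPM in cKO+NDI1, and 19.9, 25.7 and 30.0 CPM in cKO. All 6 cKO+NDI1 libraries were above all 6 cKO libraries, a separation seen for 0.516% of all genes tested, or 0.954% with either direction. The adjusted p of 0.0541 was just over the threshold (log2 0.39 ± 0.09). Pdk1 passed with RLE size factors, in DESeq2, with 1 surrogate variable, without the cKO library M3 and without the Cre control library F2. Eno1 had 349, 369 and 377 CPM in cKO+NDI1 and 284, 302 and 360.0 CPM in cKO, and 5 of 6 cKO+NDI1 libraries lay above every cKO library (log2 0.24 ± 0.06, edgeR adjusted p = 0.153). Eno1 passed in DESeq2 (adjusted p = 0.0191), and in edgeR with 1 surrogate variable (0.013) or without the cKO library M3 (0.0274). Pgam1 had 87.8, 101 and 107 CPM in cKO+NDI1 and 80.3, 83.9 and 89.3 CPM in cKO, again with 5 of 6 above (log2 0.23 ± 0.08, adjusted p = 0.302). Only with 1 surrogate variable did Pgam1 pass (edgeR adjusted p = 0.00723). Hk2 averaged 15.4 ± 2.71 CPM in cKO+NDI1 and 11.9 ± 3.41 CPM in cKO (log2 0.34 ± 0.17, adjusted p = 0.614). The Hk2 value was 0.54 without the cKO library M3, 0.01 in males alone and 0.72 in females alone, and it passed in none of these. Slc16a1 had a negative value, and averaged 65.7 ± 8.87 CPM in cKO+NDI1 and 70.0 ± 5.81 CPM in cKO (log2 -0.10 ± 0.08, adjusted p = 0.801).

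Oligodendrocyte markers moved with this comparison: their summed level was 9103 to 11012 CPM in cKO+NDI1 and 11521 to 18111 CPM in cKO, and 4 of the 7 markers passed as lower. Astrocyte and Bergmann glia markers summed to 5714 to 6157 CPM in cKO+NDI1 and 5531 to 6168 CPM in cKO, and Purkinje markers to 8263 to 9804 CPM in cKO+NDI1 and 8585 to 9224 CPM in cKO, both overlapping. The part of these markers in the values of the 34 genes was not tested.

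The comparison of cKO+NDI1 with the NDI1 control asks for the effect of the knockout on an NDI1 background. None of the 34 genes passed, and 0% of all genes tested did. At an unadjusted p under 0.05 stood 6 of the 34, all lower in cKO+NDI1, or 17.6%, against 4.48% of all genes tested (686 genes, 2.07% lower). Of the 34 values 25 were negative, against 53.1% of all genes tested. DESeq2 called 23 genes and limma-voom 0, and 0 of the 34 in either. All 15 enzymes of the glycolytic path had negative values with TMM or RLE scaling, and 14 of 15 with library size alone. Their median log2 was -0.08, compared with -0.10 for the knockout effect in mice without NDI1. The NDI1 control libraries also enter NDI1 control against Cre control, where 14 of the 15 had positive values (median log2 0.07). In cKO+NDI1 against Cre control 8 of the 15 were negative (3 with library size alone), with a median log2 of -0.0004. Against the NDI1 control the smallest p was that of Slc16a1. It had 56.7, 62.5 and 77.9 CPM (lowest, median, highest) in cKO+NDI1 and 70.5, 77.7 and 87.8 CPM in the NDI1 control (log2 -0.26 ± 0.08, edgeR adjusted p = 0.726, groups overlapping). Eno1 had 349, 369 and 377 CPM in cKO+NDI1 and 383, 404 and 442 CPM in the NDI1 control. The 2 groups did not overlap, as for 0.314% of all genes tested, yet the difference did not pass (log2 -0.16 ± 0.06, adjusted p = 0.937). Pdhb averaged 203 ± 11.9 CPM in cKO+NDI1 and 225 ± 19.5 CPM in the NDI1 control (log2 -0.15 ± 0.06, adjusted p = 0.98). Pdk1 averaged 32.8 ± 2.49 CPM in cKO+NDI1 and 32.7 ± 1.88 CPM in the NDI1 control (log2 0.01 ± 0.08), and Hk2 15.4 ± 2.71 CPM in cKO+NDI1 and 17.2 ± 3.39 CPM in the NDI1 control (log2 -0.17 ± 0.16). Astrocyte and Bergmann glia markers summed to 5714 to 6157 CPM in cKO+NDI1 and 6038 to 6720 CPM in the NDI1 control. All 7 oligodendrocyte, all 4 choroid plexus and all 5 red blood cell markers had negative values, all 7 microglia markers had positive ones, 0 of the markers passed, and their part in these values was not tested.

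The knockout's values without NDI1 (cKO against Cre control) and with it (cKO+NDI1 against NDI1 control) come from different libraries and can be set side by side. They had the same sign in 26 of the 34 genes (76.5%), against 65.6% of all 15300 genes tested. Across the 34 genes Pearson's r was 0.60 and Spearman's rho 0.50, and across all genes tested 0.41 and 0.39. These describe genes of 1 model, which are not independent replicates. Pdk4 had the largest positive value of the 34 in both comparisons (log2 0.41 in each), which weighs on r. Its value without NDI1 includes the cKO female F1 at 20.6 CPM, apart from the other cKO libraries at 6.71 to 10.3 CPM. The correlation without Pdk4 was not computed. The test of the difference between the 2 knockout effects, the interaction, called 0 of the 34 genes and 0 of all genes tested (0%). An unadjusted p under 0.05 was seen for 5 of the 34 (4 positive, 1 negative), or 14.7%. Of all genes tested 792 had one, or 5.18% (2.05% positive, 3.12% negative). DESeq2 called 0 of the 34 and 7 of all genes tested. Pdk1 came closest (log2 0.44 ± 0.12, edgeR adjusted p = 0.537): its knockout effect was log2 0.01 with NDI1 and -0.43 without. Hk2 was at 0.50 ± 0.23 and Eno1 at 0.18 ± 0.09 (adjusted p = 0.96 for each), Pdk3 at 0.22 ± 0.10 and Eno2 at -0.15 ± 0.06 (adjusted p = 0.929 for each). The Slc16a1 effect was log2 -0.26 with NDI1 and -0.24 without (interaction -0.02 ± 0.11, adjusted p = 1). By sex it was -0.35 with NDI1 and -0.12 without in males, and -0.16 with NDI1 and -0.37 without in females. The interaction was thus -0.24 in males alone and 0.22 in females alone, with neither passing (edgeR adjusted p = 1 and 0.968).

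The comparison of cKO+NDI1 with the Cre control asks whether knockout mice with NDI1 differ from mice with neither. Of the 34 genes 1 passed (2.94%), as lower, where 1.25% of all genes tested passed, 0.405% as lower and 0.843% as higher. At an unadjusted p under 0.05 stood 4 of the 34 (2 lower, 2 higher), or 11.8%, against 13.5% of all genes tested (6.47% lower, 7.02% higher). The gene that passed was Slc16a1, with 56.7, 62.5 and 77.9 CPM (lowest, median, highest) in cKO+NDI1 and 70.8, 81.1 and 94.6 CPM in the Cre control. The groups overlapped, since 2 females of cKO+NDI1 stood at 75.1 and 77.9 CPM. The fold change was 0.793 (log2 -0.33 ± 0.08 SE, edgeR adjusted p = 0.0389). The call ended in 9 of the 24 fits that left out 1 library, each of them a library of these 2 groups (adjusted p up to 0.133), and with library size alone or no filter.

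Eno2 was next, with 845, 956 and 979 CPM in cKO+NDI1 and 812, 835 and 875 CPM in the Cre control. It was above every Cre control library in 5 of 6 cKO+NDI1 libraries (log2 0.17 ± 0.05, edgeR adjusted p = 0.0677). Eno2 passed in edgeR with library size alone (adjusted p = 0.0329), a gene length offset (0.0269) or 1 surrogate variable (0.00281), and in DESeq2 (0.00157). Pfkfb4 averaged 18.8 ± 2.13 CPM in cKO+NDI1 and 16.2 ± 1.66 CPM in the Cre control (log2 0.22 ± 0.09, adjusted p = 0.257). The genes that passed in cKO against Cre control did not pass here: Eno1 was at log2 -0.11 ± 0.06 (adjusted p = 0.483), Pdk1 at -0.04 ± 0.08 (adjusted p = 0.889) and Hk2 at -0.33 ± 0.16 (adjusted p = 0.378). Of all 34 values 18 were negative, against 51.2% of all genes tested, but with library size alone 11 were, so no common direction can be read. None of the 34 had groups that did not overlap, against 1.58% of all genes tested (0.765% above, 0.81% below). Oligodendrocyte markers summed to 9103 to 11012 CPM in cKO+NDI1 and 12080 to 14079 CPM in the Cre control, with no overlap and 3 of 7 passing as lower. Astrocyte and Bergmann glia markers summed to 5714 to 6157 CPM in cKO+NDI1 and 6413 to 6563 CPM in the Cre control, also with no overlap, and 8 of 10 had negative values with 1 passing as lower. Of the 10 endothelial markers, which summed to 281 to 348 CPM in cKO+NDI1 and 256 to 302 CPM in the Cre control, 7 had positive values and 1 passed as higher. The part of these 3 marker lists in the Slc16a1 value was not tested.

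NDI1 alone, in the NDI1 control against the Cre control, gave no call among the 34 genes in edgeR, where 0.00654% of all genes tested passed (1 gene), and 4 of the 34 had an unadjusted p under 0.05 (3 higher, 1 lower), or 11.8%, against 9.2% of all genes tested (4.9% higher, 4.31% lower). Of the 34 values 24 were positive, while 48.6% of all genes tested had negative values. DESeq2 called 1 of the 34 (Eno2) and limma-voom 0. Eno2 had 928, 951 and 1038 CPM (lowest, median, highest) in the NDI1 control and 812, 835 and 875 CPM in the Cre control. All 6 NDI1 control libraries lay above all 6 Cre control libraries, as for 0.386% of all genes tested in either direction (log2 0.20 ± 0.05, edgeR adjusted p = 0.141). The means of Eno2 in the other 3 groups lay between 910.4 and 962 CPM, and that of the Cre control was 839.9 CPM. Pdk3 averaged 31.1 ± 2.02 CPM in the NDI1 control and 36.4 ± 1.64 CPM in the Cre control (log2 -0.23 ± 0.07, adjusted p = 0.286). Pdhb averaged 225 ± 19.5 CPM in the NDI1 control and 201 ± 17.3 CPM in the Cre control (log2 0.16 ± 0.06, adjusted p = 0.39). Eno1 was at log2 0.05 ± 0.06, Pdk1 at -0.05 ± 0.08, Hk2 at -0.16 ± 0.16 and Slc16a1 at -0.08 ± 0.08, with adjusted p between 0.739 and 0.844. All 7 genes of upper and all 6 of lower glycolysis had positive values, with medians of log2 0.07 and 0.10, and all 4 pyruvate dehydrogenase kinases negative ones, under each of the 3 scalings tried. Oligodendrocyte markers summed to 9649 to 12024 CPM in the NDI1 control and 12080 to 14079 CPM in the Cre control, with no overlap, and all 7 had negative values. All 4 choroid plexus and all 5 red blood cell markers had positive values. None of the markers passed, 4 oligodendrocyte markers had an unadjusted p under 0.05, and the part of these markers in the values of the 34 genes was not tested.

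Several steps are served by a pair of isozymes, and the ratio of their counts within a library does not depend on how libraries are scaled. Differences in the mean log2 ratio were tested by relabeling genotypes within males and within females (an exact two-sided permutation test with 400 relabelings, smallest possible p 0.005) and adjusted over 30 tests of 6 pairs in 5 comparisons. The log2 ratio of Eno1 to Eno2 ranged from -1.70 to -1.33 in cKO and from -1.22 to -0.90 in the Cre control, and averaged -1.55 ± 0.13 in cKO and -1.09 ± 0.10 in the Cre control (SD, n = 6 each). The difference of -0.46 was beyond the spread between mice, with no overlap (exact p = 0.005, adjusted p = 0.05). The same ratio ranged from -1.44 to -1.23 in cKO+NDI1, which also lay wholly below the Cre control (difference -0.27, exact p = 0.005, adjusted p = 0.05). There Eno2 was at log2 0.17 and Eno1 at -0.11, and neither passed in edgeR. Both differences use the same Cre control libraries, so they are not separate results. The Eno2 mean of that group, 840 CPM, was the lowest, against 910, 942 and 962 CPM in cKO, cKO+NDI1 and the NDI1 control. In the NDI1 control it ranged from -1.34 to -1.09. The other comparisons of this ratio did not pass: 0.19 for cKO+NDI1 against cKO (adjusted p = 0.12), -0.13 for cKO+NDI1 against NDI1 control (adjusted p = 0.125) and -0.14 for NDI1 control against Cre control (adjusted p = 0.131), all by the exact permutation test.

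The log2 ratio of Hk2 to Hk1 averaged -4.34 ± 0.27 in cKO and -3.66 ± 0.21 in the Cre control. The difference was -0.68 (exact p = 0.005, adjusted p = 0.05), with an overlap at the cKO library M3. In cKO+NDI1 it averaged -3.94 ± 0.28, and its difference from cKO was 0.39 (exact p = 0.04, adjusted p = 0.133). Its other differences were -0.13 for cKO+NDI1 against NDI1 control, -0.29 for cKO+NDI1 set against the Cre control and -0.16 for the NDI1 control set against the Cre control (exact permutation test, adjusted p = 0.6, 0.285 and 0.46 in this order). The log2 ratio of the lactate dehydrogenase genes Ldha and Ldhb averaged -1.54 ± 0.12 in cKO and -1.54 ± 0.13 in the Cre control (difference -0.005, exact p = 0.95), which did not pass. Nor did Pfkp to Pfkm (0.01, exact p = 0.79), Aldoa to Aldoc (-0.08, exact p = 0.115) or Slc16a1 to Slc16a7 (-0.09, exact p = 0.6) pass. Across the other comparisons the differences of these 4 ratios lay between -0.39 and 0.21 with no adjusted p under 0.12. In all 30 tests, 3 passed, each at the threshold itself, which needed at least 3 ratios at the smallest possible p. For both ratios in cKO against Cre control the call ended without the Cre control library M1, M2, M3, F1 or F2 and held in the other 7 of 12 tests with 1 library left out. For Eno1/Eno2 in cKO+NDI1 set against the Cre control it ended without the same 5 libraries or the cKO+NDI1 library F2 or F3. Where a call ended, the exact permutation test gave p = 0.005 or 0.01 (adjusted p = 0.075 or 0.1), and the differences kept their sign. Calls this close to the threshold turn on these coarse steps of p and on how many ratios share the smallest. The lost calls therefore do not single out those libraries.

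**Figure D3:**
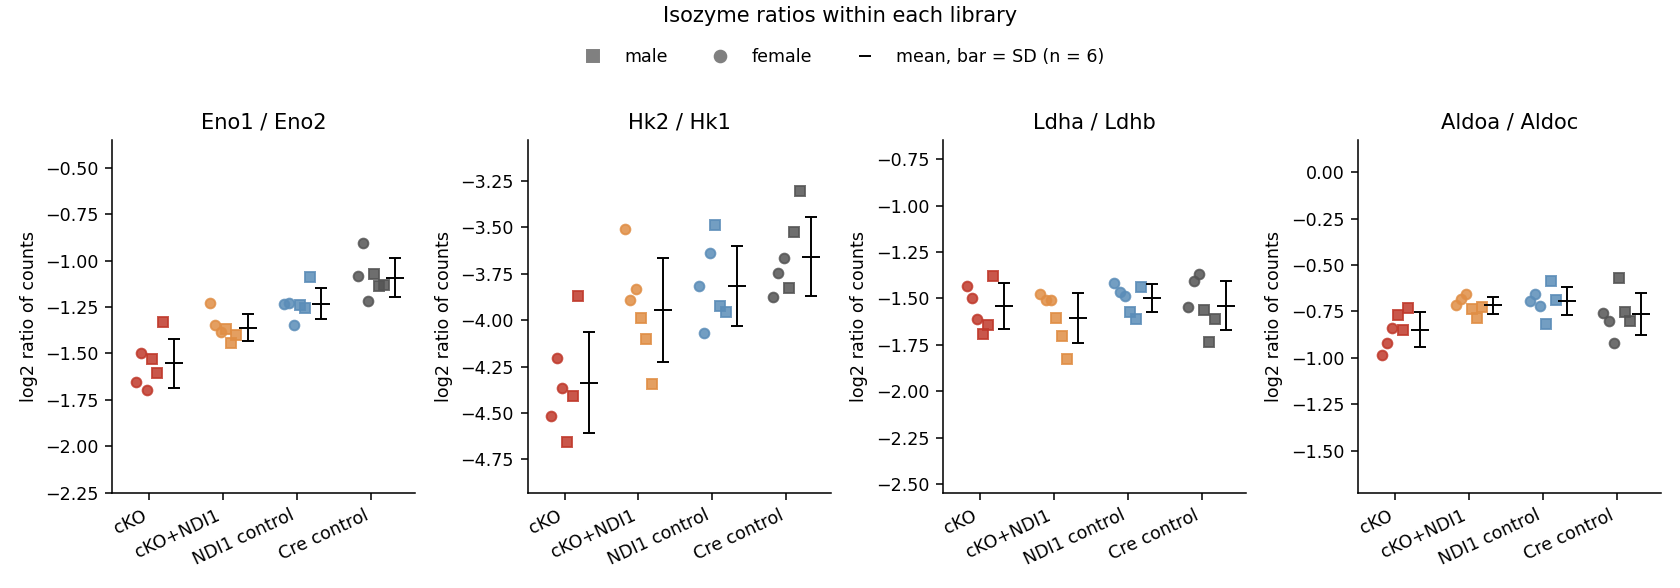
Log2 ratio of the counts of 2 isozymes within each library (y axis) by genotype group (x axis) for Eno1/Eno2, Hk2/Hk1, Ldha/Ldhb and Aldoa/Aldoc, squares for males and circles for females, with the mean and SD of each group of 6. The Eno1/Eno2 ratios of cKO, between -1.70 and -1.33, and of cKO+NDI1, between -1.44 and -1.23, all lie below those of the Cre control, while Ldha/Ldhb overlaps in all groups.

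Within each sex the signs of the called genes were the same, which is no separate check, since the same libraries gave the calls. In females alone (3 against 3), cKO against Cre control gave log2 -0.43 for Eno1 (edgeR adjusted p = 0.037), -0.55 for Pdk1 (adjusted p = 0.0424) and -0.95 for Hk2 (adjusted p = 0.023). In males alone it gave -0.28 (adjusted p = 0.14), -0.34 (adjusted p = 0.15) and -0.45 (adjusted p = 0.288) for these genes in the same order, so none passed. A difference of the knockout effect between the sexes was not tested here. Slc16a1 in cKO+NDI1 against Cre control was at log2 -0.32 in males and -0.36 in females, neither of which passed (edgeR adjusted p = 0.303 and 0.452). In male against female over all 4 groups, 0 of the 34 genes passed and 0.085% of all genes tested did (13 genes), while 6 of the 34 had an unadjusted p under 0.05, or 17.6%, close to the 16.9% of all genes tested. DESeq2 and limma-voom also called 0 of the 34. The smallest p belonged to Ldhb (log2 0.17 ± 0.06), Slc16a1 (log2 -0.13 ± 0.06) and Mpc1 (log2 0.24 ± 0.10), each with an edgeR adjusted p of 0.291. With 1 surrogate variable in the model, Ldhb was at 0.05 and Mpc1 at 0.01.

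The 34 genes span more than 3 orders of magnitude. Divided by exon length, the mean level in the Cre control was 926 ± 89.0 CPM per kb for Aldoc, 612 ± 72.4 for Aldoa and 463 ± 60.6 for Ldhb (SD, n = 6). Pkm and Tpi1 followed at 264 ± 7.35 and 257 ± 33.4 CPM per kb, closer to each other than their spread, and then Pfkm, Eno2 and Gapdh at 182 ± 8.81, 179 ± 5.34 and 166 ± 8.58. Pgk1, Ldha, Eno1 and Pdk2 stood at 88.3, 75.5, 73.4 and 71.5 CPM per kb, and neighbours in this order were within their spread. The lowest were Hk2 at 3.21 ± 0.67, Pfkfb2 and Pdk4 at 2.18 and 2.16, and Slc16a7 and Slc16a3 at 0.462 and 0.273 CPM per kb. On this scale Eno2 stood above Eno1, Ldhb above Ldha, Hk1 (28.3) above Hk2 and Pdk2 above Pdk1 (4.34). The 3 genes that fell in cKO therefore came from the middle and the bottom of this order, and none from the 8 most abundant. The median coefficient of variation between mice over the 34 genes was 8.13% in cKO, 7.61% in cKO+NDI1, 11.1% in the NDI1 control and 10.8% in the Cre control. Eno2 varied least in cKO (2.08%) and Pdk4 most (50.8%).

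**Figure D4:**
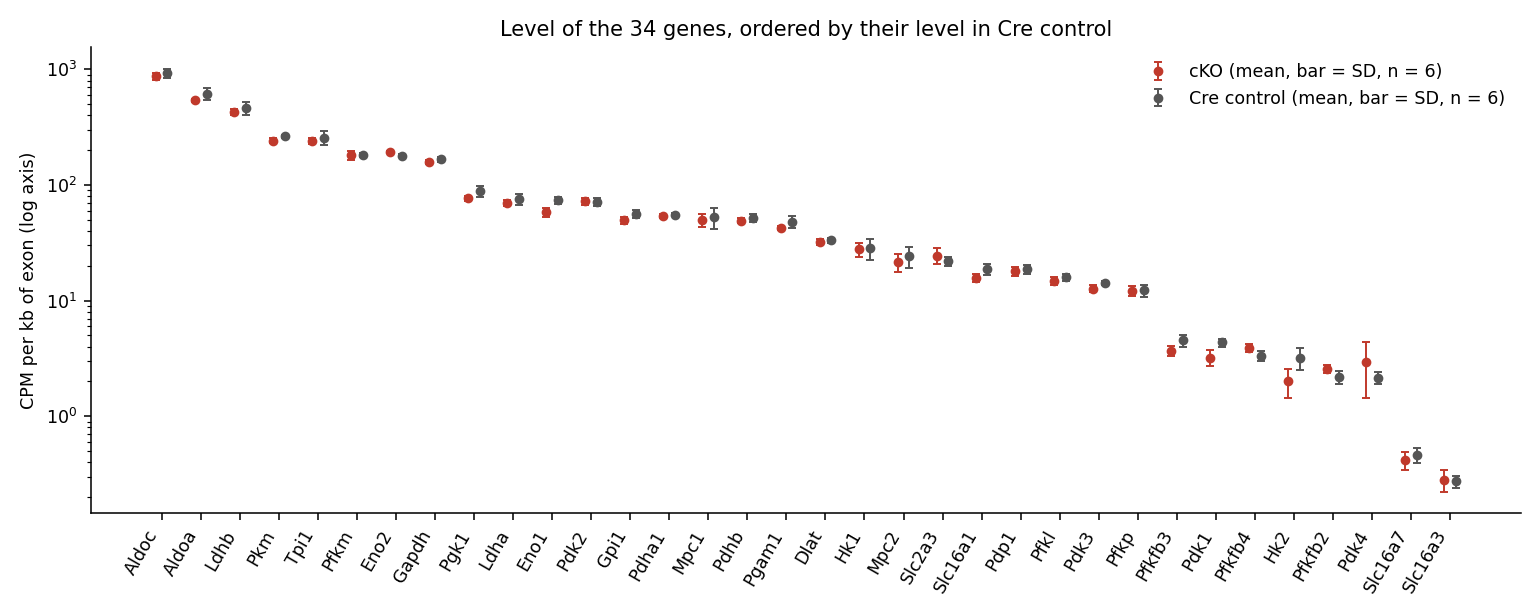
Level of the 34 genes per kb of exon (y axis, CPM per kb, log scale), ordered by their mean in the Cre control (x axis), with cKO in red and the Cre control in grey as mean and SD of 6 libraries. Levels run from 926 CPM per kb for Aldoc to 0.273 for Slc16a3 in the Cre control, and the groups lie apart most visibly for Eno1, Pdk1 and Hk2, with the wide bar of Pdk4 in cKO.

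Other genes of the pathway were taken from a second list of 32, of which 27 had enough counts to be tested. In cKO against Cre control 0 of these 27 passed, where 4.87% of all genes tested did. Negative values were seen for 15 of the 27 (55.6%), against 51.9% of all genes tested, with a median log2 of -0.01. Dld, the E3 subunit of the pyruvate dehydrogenase complex, came closest, at 177, 187 and 196 CPM (lowest, median, highest) in cKO and 194, 208 and 218 CPM in the Cre control (log2 -0.16 ± 0.05, adjusted p = 0.0575). Pdp2, a pyruvate dehydrogenase phosphatase, was at log2 -0.30 ± 0.11 (adjusted p = 0.133), and Slc2a1, the glucose transporter of endothelium and astrocytes, at 0.22 (adjusted p = 0.361). In cKO+NDI1 against Cre control 1 of the 27 passed, as higher, where 1.25% of all genes tested passed, 0.843% as higher. It was Ldhd, a mitochondrial dehydrogenase of D-lactate, with 17.8, 20.8 and 24.6 CPM in cKO+NDI1 and 13.6, 14.8 and 19.01 CPM in the Cre control, which overlapped (log2 0.44 ± 0.11, edgeR adjusted p = 0.0389). Ldhd was also positive, without passing, in cKO against Cre control (0.28, adjusted p = 0.137) and in the NDI1 control against the Cre control (0.36, adjusted p = 0.269). In cKO+NDI1 against cKO 0 of the 27 passed, where 0.209% of all genes tested did. Tkt, the transketolase of the pentose phosphate pathway, was at log2 0.13 ± 0.05 (adjusted p = 0.425). Dld was next to Ldhd in cKO+NDI1 against Cre control (-0.14, adjusted p = 0.183). In the other comparisons, too, 0 of the 27 passed, where at most 0.085% of all genes tested did. The smallest p were those of Dld (-0.12) and Pgd (-0.12) in cKO+NDI1 against NDI1 control, of Ldhd and Pgm2 (0.24) in NDI1 control against Cre control, of Pgm2 (-0.24) and Pdp2 (0.25) in the interaction, and of Bsg (0.18) and Bpgm (0.13) in male against female, with adjusted p between 0.269 and 1.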

How the data were processed

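The deposited table holds raw read counts per gene for 24 libraries, unnormalized whole numbers as the authors deposited them. Per the labels, cerebellar RNA was purified with DNase treatment and polyA-selected; the tools named in the submitters' processing notes are bcl2fastq, Trimmomatic, STAR (an aligner) and HTSeq (a read counter), and the build is mm10. The strand and multimapping settings of the counting are not given in the sources used here, so reads of overlapping genes and pseudogenes may be misassigned: 11 of the 34 genes share exon bases with another gene (10 with one on the opposite strand), but none of Eno1, Eno2, Pdk1, Hk2 and Slc16a1. The deposited gene lengths exceed the gene span for 1982 genes, so levels per kb use exon lengths of GENCODE vM21. Per-library columns left unused number 0. The labels give each library's group, sex and number and name no batch. Libraries of 1 group differed by more than sampling noise in all 60 pairs (chi-square at least 4.59 times its degrees of freedom).

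Genes were kept with filterByExpr by group (15300 of 43430), scaled with TMM, and tested with edgeR's quasi-likelihood test (R 4.3.3 with edgeR 4.0.16 and limma 3.58.1), fitting group and sex to all 24 libraries together. Within each comparison the Benjamini-Hochberg method was applied to the p-values of all tested genes, with a threshold of 0.05. Standard errors were derived from each log2 fold change and the square root of F. CPM uses TMM library sizes; isozyme ratios use a prior count of 0.5. The pipeline was tested on simulated counts. The 34 genes, the second list and the marker lists were chosen with earlier results of these data known. Full statistics are given for genes that passed in any comparison and for the 3 with the smallest p in each, and of the second list for those that passed and the 2 with the smallest p in each comparison; all other values are a description. Some results on the second list are not reported here. Alternatives were RLE factors, library size alone, no filter, an offset for gene length, DESeq2 1.42.0, limma-voom, only the groups compared, each sex alone, 1 surrogate variable (sva 3.50.0), the replicate number as a block, and leaving out each library.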

Additional observations from a re-analysis of the deposited data

Results flagged for a closer look

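Of 136 sets of 6 libraries (34 genes in 4 groups), 5 held a library far from the other 5, with a gap to its nearest neighbour, as a share of the whole range, above Dixon's 95% critical value. Chance gives such a gap in about 1 in 20 groups, and 5 of 136 is not more than that. Hk2 in the cKO male M3 was at 18.5 CPM, and the other 5 cKO libraries at 9.11 to 11.7 CPM; without it the cKO mean is 10.6 ± 1.20 CPM (SD, n = 5) instead of 11.9 ± 3.41. Pdk4 in the cKO female F1 was at 20.6 CPM, and the others at 6.71 to 10.3 CPM; without it the mean is 8.17 ± 1.34 CPM (SD, n = 5). Eno2 in the cKO+NDI1 female F1 was at 845 CPM, below the others at 948 to 979 CPM, and without this library Eno2 passed in cKO+NDI1 against Cre control. Slc16a7 in the cKO+NDI1 female F3, the library with the smallest total, was at 7.67 CPM, and the others at 4.03 to 4.78 CPM. Aldoc in the Cre control female F2 was at 3611 CPM, and the others at 2870.4 to 2973 CPM. The cKO library M3 was the highest cKO library for 13 of the 34 genes, Eno1, Pdk1, Hk2 and Slc16a1 among them, and the lowest for 7.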

How the results depend on the processing

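In cKO against Cre control, where 3 of the 34 genes passed, 10 passed with a gene length offset, 6 in DESeq2, 16 with 1 surrogate variable, 1 with only the groups compared and 0 in males alone; leaving out 1 library gave 2 to 4. The count over all genes moved with it, from 745 as reported to 1244, 1159, 3188, 263 and 38 in the same order. In cKO+NDI1 against cKO, with 0 passing, 1 passed with RLE factors, 2 in DESeq2 and 7 with 1 surrogate variable, and leaving out 1 library gave 0 to 2; over all genes these settings gave 33, 110 and 442, and 32 as reported. In cKO+NDI1 against Cre control, with 1 passing, 2 passed with the length offset, 2 in DESeq2, 3 with 1 surrogate variable, and 0 with no filter, in males alone or in females alone; leaving out 1 library gave 0 to 2, and with library size alone the gene that passed was Eno2 instead of Slc16a1. Over all genes 191 passed as reported, 479 with the length offset, 491 in DESeq2, 1631 with 1 surrogate variable, 87 with no filter, 14 in males and 2 in females. In NDI1 control against Cre control, with 0 passing, 1 passed with the length offset, 1 in DESeq2 and 2 with 1 surrogate variable, where all genes gave 35, 69 and 293, and 1 as reported. The slope, on exon length, of each gene's log2 deviation from its mean over all libraries differed between libraries, from -0.20 to 0.18 per doubling of length, and its range overlapped between all 4 groups. The cause of these changes was not tested; each sex alone has 12 libraries. In cKO+NDI1 against NDI1 control, the interaction and male against female the count was 0 under every alternative run.

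The 3 isozyme ratios at the threshold did not pass in males alone, in females alone or with the replicate number as a block. These lost calls say nothing about the ratios, since the tests were too coarse. In each sex alone all 3 had an exact permutation p of 0.1. That is the smallest p that 3 against 3 mice allow, so none could pass. With the block all 3 had an exact permutation p of 0.03125, again the smallest possible. Such a p passes only if most of the tests adjusted together share it. In males alone the differences were -0.38 (Eno1/Eno2, cKO against Cre control), -0.29 (Eno1/Eno2, cKO+NDI1 against Cre control) and -0.76 (Hk2/Hk1, cKO against Cre control), and in females alone -0.55, -0.25 and -0.60 in the same order. With the replicate number as a block they were -0.46, -0.27 and -0.68 (adjusted p = 0.156 for each). Without 1 library they ranged from -0.51 to -0.42, from -0.30 to -0.23 and from -0.77 to -0.61. The replicate block changed no count of genes that passed (3, 0, 0, 1, 0 and 0 in the 5 genotype comparisons and the interaction). Same-numbered libraries of 2 groups correlated between -0.47 and 0.47 in their deviations from group means, so the numbers are not taken as pairs.

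Depth limits the genes with few counts (Slc16a3, Slc16a7, Pdk4 and Hk2). Nothing in the labels says how libraries were batched, and p-values measure the spread between these 24 mice.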
